A study of Kluyveromyces marxianus with 6 samples.

Results

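The mRNAs whose transcriptional level was lowest in mid-exponential growth comprised 335 of the 4021 mRNA transfrags of *Kluyveromyces marxianus* with a mean level of at least 10. They were chosen from the levels themselves. An mRNA was a member if its level plus 1 in both early-exponential (EE) and late-exponential (LE) growth was at least 1.5 times that in mid-exponential (ME) growth. The members were 8.33% of the mRNA transfrags tested, and their low ME level is a description that follows from the choice. The series lists 5785 mRNA transfrags among 14298 transfrags of all RNA classes. A transfrag is a contiguous transcribed stretch of a contig on one strand, so a gene can hold several.

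*K. marxianus* strain marxianus ATCC 36907 (KM7), a haploid yeast that ferments many sugars, was grown in shaken culture at 30 °C. The medium, called YNB-u, held yeast nitrogen base, amino acids without uracil and dextrose. EE cells were taken at an optical density near 3, ME cells near 7 and LE cells near 10, each from 2 biological replicates. After rRNA depletion, strand-specific RNA-seq was run on the 6 libraries, and 1 mean level per transfrag and growth phase was deposited. All groups are the same strain in the same medium, and each value below is the authors' mean without a replicate spread.

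A yeast culture that leaves a resting state first rebuilds its machinery for protein synthesis, and it later adjusts its metabolism as sugar and other nutrients decline. Many yeast genes with a transient profile encode regulators, such as transcription factors, kinases and small GTPases, whose mRNAs are commonly short-lived. Long antisense non-coding RNAs (lancRNAs) are transcribed from the strand opposite a gene, and in yeast some of them interfere with the sense transcript.

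Levels are normalized read signals that are not scaled by transfrag length. At the recovered depth, 3 reads in a single library made a level of at most 4.00, 1.09 and 1.19 in EE, ME and LE. No member had an ME level at or below that of 3 reads. Errors given below are counting standard errors on the log2 scale, which leave out the spread between cultures, so no p-value is given. In bulk RNA, a lower level in every cell cannot be told apart from a level lost in some of the cells. Contigs are those of the authors' draft assembly, numbered by the end of their identifier. Names are the usual gene names of the closest homolog, held here for 133 members with a median protein identity of 58.2% (range 21.4% to 98.9%), and the roles given are those in *Saccharomyces cerevisiae* unless another species is named.

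The median level of the members was 1536, 471 and 829 in EE, ME and LE. The other 3686 mRNA transfrags had medians of 46.3, 108 and 119 in EE, ME and LE. The median member was 2.79 times as high in EE as in ME (at most 15.5 times) and 1.76 times as high in LE as in ME (at most 8.96 times). For most members EE thus stood further above ME than LE did. Of the members, 82 had an EE to ME ratio under 2, 163 from 2 to under 4, 77 from 4 to under 8 and 13 of 8 or more. In 54 members both ratios were at least 2, and in 3 both were at least 3. Among all 4021 mRNAs, EE was at least 1.5 times ME in 1166 (29%) and LE at least 1.5 times ME in 1109 (27.6%). The opposite pattern, with ME highest by the same limits, was met by 305 mRNAs (7.59%). By counting error alone, both ratios lay above 1 in 326 members and above 1.5 in 224, each by the half-width of a 95% interval. The members were chosen by these same ratios, so the counts describe read depth and are no test of the low ME level.

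**Figure D1:**
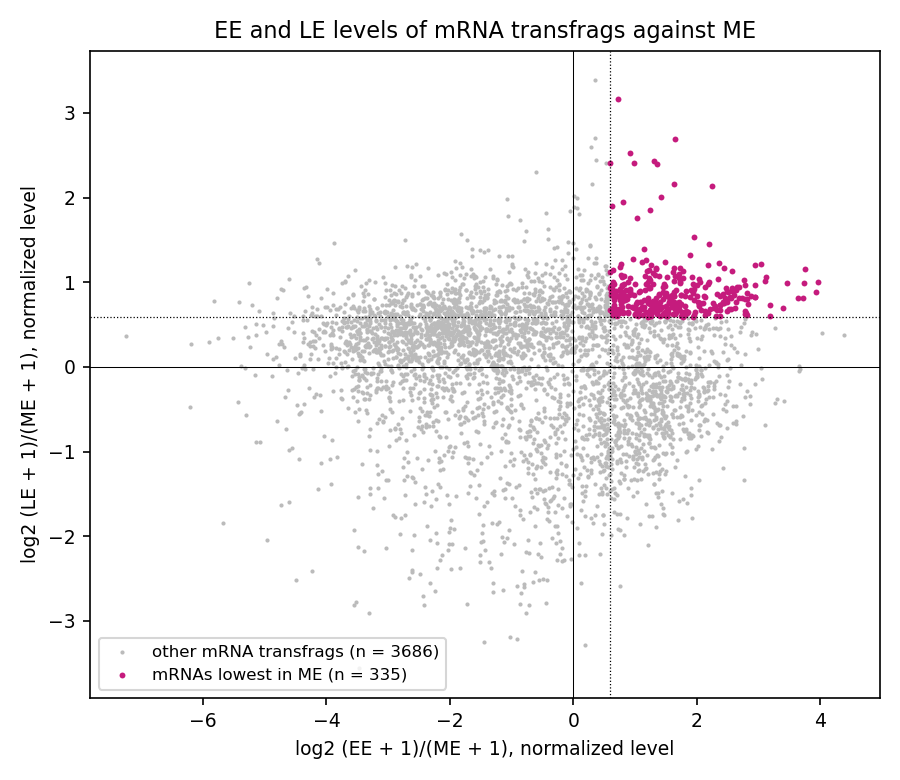
Each point is an mRNA transfrag with a mean level of at least 10, placed by the log2 ratio of its EE to its ME level (horizontal) and of its LE to its ME level (vertical), with a pseudocount of 1. The 335 members (pink) fill the upper right corner beyond the dotted limits of 1.5-fold, and the 3686 other mRNAs (grey) lie mostly to the left of it.

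The limits cut through a continuum. The members closest to the fold limit were transfrag22353, with levels of 37.6, 15.7 and 24.0 in EE, ME and LE, and transfrag16802, with 20.7, 13.5 and 76.1. Just outside lay transfrag09070, with 611.5, 167.9 and 251.7 and the homolog NST1, and transfrag07583, with 216.3, 137.1 and 205.6 and the bacterial homolog HYUA. Of 492 mRNAs that met both ratios, 335 reached a mean level of 10. At that limit, transfrag26826 (mean 10.2) and transfrag13572 (mean 10.4) were just included, and transfrag09382 with the homolog TAO3 (mean 9.62) and transfrag29566 (mean 9.98) were just left out.

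How far below the other phases ME lay depended on how the phases were scaled to each other. The phases were scaled to the same summed level or to the same sum without the 100 highest transfrags of each phase. They were also scaled to a median mRNA ratio of 0, or by the mapped reads of the libraries. The last turned levels into reads by the depth recovered from low levels and divided these by the mapped reads. The reads so estimated on transfrags were 4.41e+06 of 23309796 mapped in EE, 1.10e+07 of 28076013 in ME and 1.38e+07 of 37484281 in LE. Why this share was lowest in EE was not tested, and the counts with mapped reads rest on it. The limits of 1.5-fold were met by 48 of the members with equal sums, 64 without the highest transfrags, 235 with a median ratio of 0 and 9 with mapped reads. With mapped reads, ME lay below EE in 203 of the 335 members (60.6%). The other scalings raised ME against EE or LE by less than the limit of 1.5-fold, as did mapped reads against LE, so the choice of members fixed the order there. As deposited, the median log2 ratio over all 4021 mRNAs was 0.70 for ME over EE and 0.25 for LE over ME. With mapped reads it was 1.98 for ME over EE and -0.28 for LE over ME.

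The 9 mRNAs that met the limits under all scalings were of low or middle level. The deepest, transfrag32023 on contig 119, had 38.2, 7.24 and 35.3 in EE, ME and LE. The second, transfrag15648 on contig 106, had 291.3, 74.2 and 216.3. Both EE and LE thus stood well above ME in these transfrags, which have no homolog name here. The highest of the 9, transfrag16618 on contig 110, had 1282, 93.9 and 209.9. Named ones among the 9 were a transfrag of YSH1, an endonuclease that cleaves pre-mRNA at its 3′ end, with 31.8, 3.00 and 8.29, and one of TDA11, with 545.1, 90.9 and 200.2. The other YSH1 transfrag had 43.7, 18.9 and 16.6 in EE, ME and LE. Summed over both, YSH1 had 75.5, 21.9 and 24.9 and missed the limits. The remaining members of this set were transfrag21409, transfrag24661, transfrag19833 and transfrag24081.

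As deposited, most members had a lower level in LE than in EE. LE was lower than EE in 273 of 335 (81.5%), against 39.2% of all mRNAs tested. The median log2 ratio of LE over EE was -0.65 in the members and 0.83 over all mRNAs. LE was at least 2-fold lower than EE in 108 members (32.2%, against 25.1% of all mRNAs) and at least 2-fold higher in 9 (2.69%, against 47.5%). In 141 members (42.1%) LE lay within 1.5-fold of EE, compared with 479 of the other mRNAs (13.0%). The choice of members bears on all these shares, since it asks for both an EE and an LE level above ME. The other mRNAs were not chosen in this way. The direction turned with the scaling. With mapped reads LE was lower than EE in 147 of the same 335 members (43.9%, against 29.0% of all mRNAs), and the median log2 ratio of the members was 0.12. Under the other scalings LE was lower in 301 to 326.

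**Figure D2:**
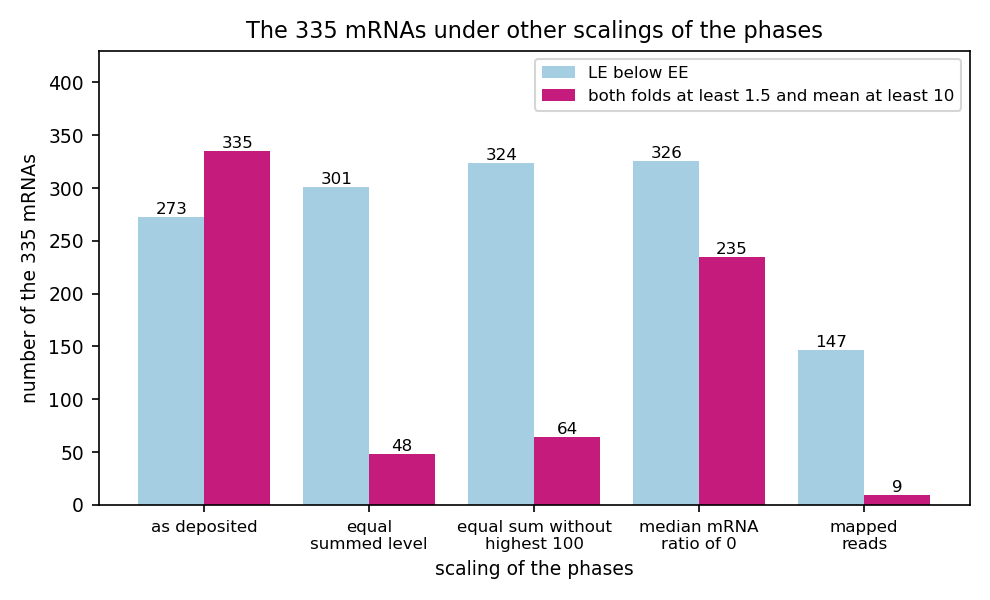
Bars count those of the 335 members with a lower level in LE than in EE (blue) and those that still met the 1.5-fold limits and the mean level of 10 (pink), under the deposited scaling and 4 others. LE lay below EE in 273 members as deposited and in 147 with mapped reads, and the limits were met by 9 to 235 under the other scalings.

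The members with the largest LE over EE ratio were mostly low in ME and EE. CTF4, a replication fork protein, had levels of 20.7, 12.2 and 117.7 in EE, ME and LE, and its LE to EE log2 ratio was 2.45 ± 0.32. The transfrag16802 already named came next, with a ratio of 1.83 ± 0.32. RIP1, the Rieske iron-sulfur subunit of respiratory complex III, had 364.8, 192.1 and 1108, which made LE the highest phase by far (LE over EE 1.60 ± 0.08). SHE4, a myosin chaperone, had 15.0, 7.13 and 42.2. At the other end, RTT107, a scaffold for DNA repair and a distant match (30.2% identity), had 772.2, 50.0 and 92.9, with LE over EE at -3.04 ± 0.10. The transfrag25238 on contig 112 had 9291, 597 and 1201, the largest EE to ME ratio of the members. ACM1, an inhibitor of the anaphase-promoting complex and also a distant match (31.2%), had 1776, 134.6 and 237.3. RSR1, the GTPase that directs bud site selection, had 2420, 193.3 and 340.4. In these 4, LE lay far nearer to ME than to EE.

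**Figure D3:**
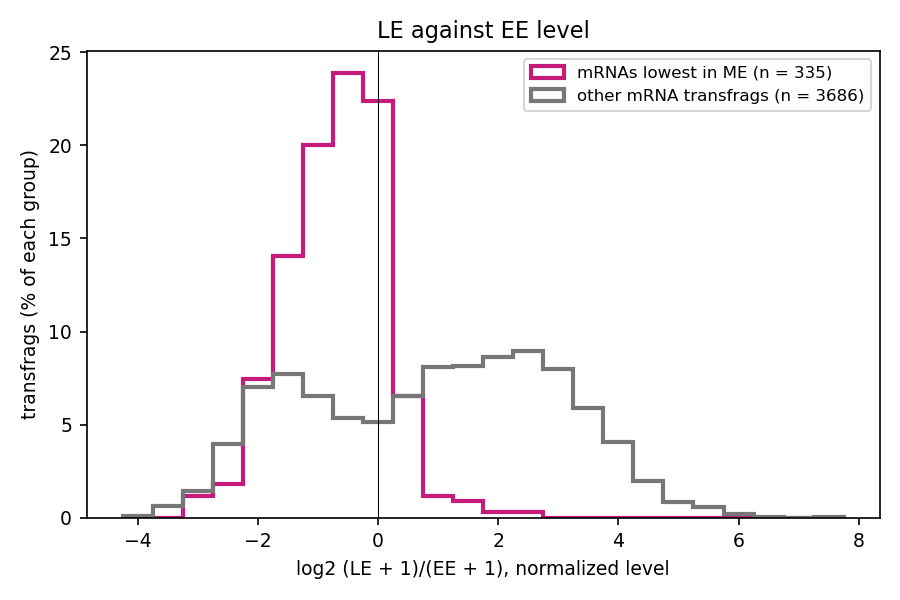
The horizontal axis is the log2 ratio of LE to EE level (pseudocount 1) and the vertical axis the share of each group in percent, in steps of 0.5. The members (pink) gather between about -2 and 0.5 with a median of -0.65, and the other mRNAs (grey) spread widely with most of them above 0.

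High levels were common among the members. The mean level reached 1000 in 164 of 335 (49.0%), compared with 11.3% of the other mRNAs. The rule was met by 2.44% of the mRNAs with a mean level from 10 to 100, by 8.18% from 100 to 1000 and by 28.2% at 1000 and over. The mean level is made of the same levels that the rule uses, so these shares are not independent of the choice. In the same order of classes, the median log2 ratio of LE over ME was -0.28, 0.46 and 0.60 over all tested mRNAs. The shares also belong to the deposited scaling. Of the 48 members that met the limits with equal sums, most had a mean level under 1000. The highest member, transfrag26945 on contig 114 (524646 to 525946, plus strand), had 119908, 30929 and 47265 in EE, ME and LE. Its log2 ratio was -1.95 ± 0.0063 for ME over EE and 0.61 ± 0.0060 for LE over ME. By mean level the next, transfrag21256 on contig 112, had 61273, 21793 and 40004. In transfrag21818 on contig 112, which followed, LE came close to EE, with 42261, 25685 and 40921. Then came transfrag16046 on contig 106, with 54538, 17653 and 31608. LE lay between EE and ME in each of these. The transfrag27455 on contig 114 had 51435, 15502 and 25816. The transfrag21534 on contig 112 had 40308, 6449 and 12419.7, and transfrag25360 on the same contig had 36036, 8232 and 13043. Both of these had the deepest ME level relative to EE within this group.

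Of these 8 highest members, 1 lay on a gene with a homolog name here. This was YTA7, a bromodomain AAA-ATPase that acts on nucleosomes and histone gene expression, on contig 103 from 684979 to 690225 (minus strand). In EE, ME and LE its level was 51698, 12899 and 25177, and its log2 ratio was -2.00 ± 0.0096 for ME over EE and 0.96 ± 0.0089 for LE over ME. Per kb of transfrag its level was 9853, 2458 and 4798, and that of transfrag26945 was 92166, 23773 and 36330. Per kb, the much longer YTA7 transfrag thus lay far below transfrag26945 in every phase.

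The members with the deepest ME level, by the smaller of their ratios to EE and LE, were mostly low. After transfrag32023, the next was a transfrag of LHS1, an Hsp70-type chaperone of the endoplasmic reticulum, with 29.6, 8.78 and 62.4 in EE, ME and LE. The transfrag25699 on contig 112 had 54.2, 16.9 and 78.8. LE was the highest phase in both. The transfrag16927 on contig 110 had 19.2, 6.51 and 29.3. CAF17, a mitochondrial protein of iron-sulfur cluster assembly, had 20.6, 7.43 and 43.3. The transfrag17136 on contig 110 had 17.2, 3.89 and 11.3, and transfrag21409 on contig 112 had 89.4, 18.9 and 53.5. Of these 8, transfrag15648 alone reached a level of 100 in any phase. Their counting errors were wide, up to 0.47 for the log2 ratio of ME over EE in transfrag17136.

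The gene annotation held here covers 139 of the members. On its genes, 8.45% of the measured mRNA transfrags met the rule. Counts below give members out of the measured transfrags of a list, and 19 of the lists were written from general knowledge of yeast. A further 5 were written after the homolog names of the members had been seen, so their counts are not independent of the members. The median log2 ratio of ME over EE ran from -0.76 over the measured transfrags of the proteasome and ubiquitin list to 2.04 over those of cytosolic ribosomal proteins, against 0.70 over all mRNAs. The lists are described with no test.

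Transcription factors and corepressors, a list written after the names were seen, held 16 members out of 70 transfrags (22.9%), on 15 genes. The highest by mean level was AZF1, a zinc finger factor of glucose-grown cells, with 9152, 5599.6 and 8463 in EE, ME and LE. CYC8, a general corepressor, had 12726, 3262 and 5097. PDR1, a regulator of drug efflux pumps in *S. cerevisiae*, had 3624, 1154 and 2428, but the match is distant at 21.4% identity. OPI1, a repressor of phospholipid synthesis genes, had 1299.6, 341.3 and 712.4. LE lay between ME and EE in each of these. Chromatin and general transcription proteins, also listed afterwards, counted 13 of 106 (12.3%), with YTA7, NAP1 and TAF1 the highest. The other part of TAF1 had 262.7, 568 and 970.1, although the summed gene met the rule. Some counted members are parts of genes whose summed level was lowest in EE. Such sums were 736.7, 2472 and 2999.6 in SNT1, and 735.3, 778.5 and 1355 in SWI3. For RDS1, in the list of transcription factors, they were 123.7, 608.8 and 861.5. NAP1, a histone chaperone, had 7844.7, 2914 and 4767. Signalling proteins counted 11 of 75 (14.7%), RNA-binding and decay proteins 7 of 42 (16.7%), and bud site and polarity proteins 8 of 47 (17.0%). In the signalling list, GPA2, the Gα protein of glucose sensing, had 8790.2, 1139 and 2221, an ME over EE log2 ratio of -2.95 ± 0.03. RHO1, the GTPase of cell wall integrity, had 6216, 2225 and 3427. YAK1, a kinase active when glucose is scarce, had 2839, 696.3 and 1146.

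The lists of protein turnover and stress had shares of members near or somewhat above the 8.45% of all annotated transfrags. The list of chaperones and stress response held 4 of 31 (12.9%) and that of proteasome and ubiquitin 3 of 34 (8.82%). RPT1, an ATPase of the proteasome base, was on contig 98 from 331094 to 332515 and had 22011, 4874 and 9608 in EE, ME and LE. RPN4, the transcription factor of proteasome genes, had 5166, 3010.3 and 5862, so LE was its highest phase. RSP5, a ubiquitin ligase of many membrane proteins, had 6838, 3378 and 5679. UBP1, a deubiquitinase, had 4759.7, 2015 and 3841. SKN7, a factor of the oxidative stress response, had 894.5, 202.5 and 389.3. HOT1, a factor of the osmotic stress response, had 104.6, 68.2 and 133.2, with a distant match of 27.1% identity. No other proteasome subunit in the list was a member, although 18 of the 34 transfrags of the list had an EE level at least 1.5 times that in ME.

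In the lists of ribosome production and translation, the shares of members ran from 0 to 10.9%, against 8.45% of all annotated transfrags. Ribosome biogenesis and RNA polymerase I counted 7 of 64 (10.9%), and cytosolic ribosomal proteins 0 of 23. NOP1, the rRNA methylase fibrillarin, had 2371, 398.4 and 740.1 in EE, ME and LE. SDA1, needed for 60S subunit maturation, had 946.9, 205.8 and 412.8. DIM1, the dimethylase of 18S rRNA, had 475.6, 173.5 and 268.2. EE exceeded LE in all 3. The remaining 4 were FCF2, LCP5, RPA34 and BRX1, with EE levels from 108.7 to 325.8. Among translation factors and tRNA synthetases 2 of 41 (4.88%) were members. DED1, an RNA helicase of translation initiation, had 8807, 3135 and 4928, and ZUO1, a chaperone on the ribosome, had 772.3, 316 and 682.4. Mitochondrial ribosomal proteins had 0 of 10.

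Central metabolism had shares of members near the 8.45% of all annotated transfrags. Glycolysis, fermentation and the pentose phosphate pathway counted 2 of 21 (9.52%), and both act in the pentose phosphate pathway. GND1, 6-phosphogluconate dehydrogenase, had 9214, 5277 and 8196 in EE, ME and LE. RPE1, ribulose-phosphate epimerase, had 6137, 1599 and 2920.4. In the citrate cycle and respiration 3 of 32 (9.38%) were members. MLS1, malate synthase of the glyoxylate cycle, had 2786, 1556 and 2699.96, and DLD1, D-lactate dehydrogenase, had 770.1, 447.2 and 730.5. LE and EE were nearly equal in both. RIP1 was the third member of this list.

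Amino acid biosynthesis counted 3 of 41 (7.32%). BAT1, the branched-chain amino acid transaminase, was the highest, with 17280.2, 7968 and 18799.8 in EE, ME and LE. PRO3, which makes proline, had 3967, 963.2 and 1975, and SER2, which makes serine, had 1545, 400.9 and 749.5. BAT1 alone of these had a higher level in LE than in EE (log2 ratio 0.12 ± 0.01). Purine and pyrimidine synthesis held 0 of 22.

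Transport of phosphate, metals and ions counted 5 of 29 (17.2%), the highest share of the 19 lists. PHO87, a low-affinity phosphate transporter of the plasma membrane, had 3610.1, 1392 and 2301 in EE, ME and LE. PMC1, the calcium pump of the vacuole, had a member with 2564, 895.2 and 1603, and the other transfrag of its gene had 127.3, 303.6 and 192.7. Summed over both, PMC1 had 2691, 1199 and 1795 and just missed the limits. AFT1, the transcription factor of iron uptake genes, had 2049.98, 809.6 and 1814. AFT1 had both ratios above 2, and its ME over EE log2 ratio was -1.34 ± 0.04. The others were PHO91, a phosphate transporter of the vacuole, and MRS4, a mitochondrial iron carrier. In contrast, sugar and carboxylate transporters held 0 of 11 members and amino acid, peptide and nitrogen transporters 0 of 21.

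Sterol and lipid synthesis counted 4 of 32 (12.5%). MGA2, a membrane-bound activator of the fatty acid desaturase gene, had 9472, 3855 and 6293 in EE, ME and LE. LCB1, a subunit of serine palmitoyltransferase, had 8522, 3371 and 5300.2. ERG20, farnesyl pyrophosphate synthase, had 4401, 1339.9 and 2273. The last was a transfrag with a homolog of the fission yeast sterol regulator SREBP. Proteolysis, vacuole and autophagy held 1 of 19, which was ATG3, a conjugating enzyme of autophagy, with 2979, 1063 and 1635.

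Cell cycle and DNA replication counted 4 of 39 (10.3%). WHI5, a repressor of the G1/S transition, had 2421, 520.4 and 835.7 in EE, ME and LE. CDT1, a licensing factor of replication origins, had 495.9, 159.3 and 285.2 and a distant match of 33.3% identity. With CTF4 and POL2, the list held both EE-high and LE-high members. Cell wall and adhesion counted 2 of 42 (4.76%), the mannosyltransferases KTR5 with 581.4, 189.7 and 292.5 and MNN1 with 337.9, 132.1 and 203.8. Histones held 0 of 5 members and mating and haploid functions 0 of 13. With the small numbers measured, a list without members says little about its genes.

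**Figure D4:**
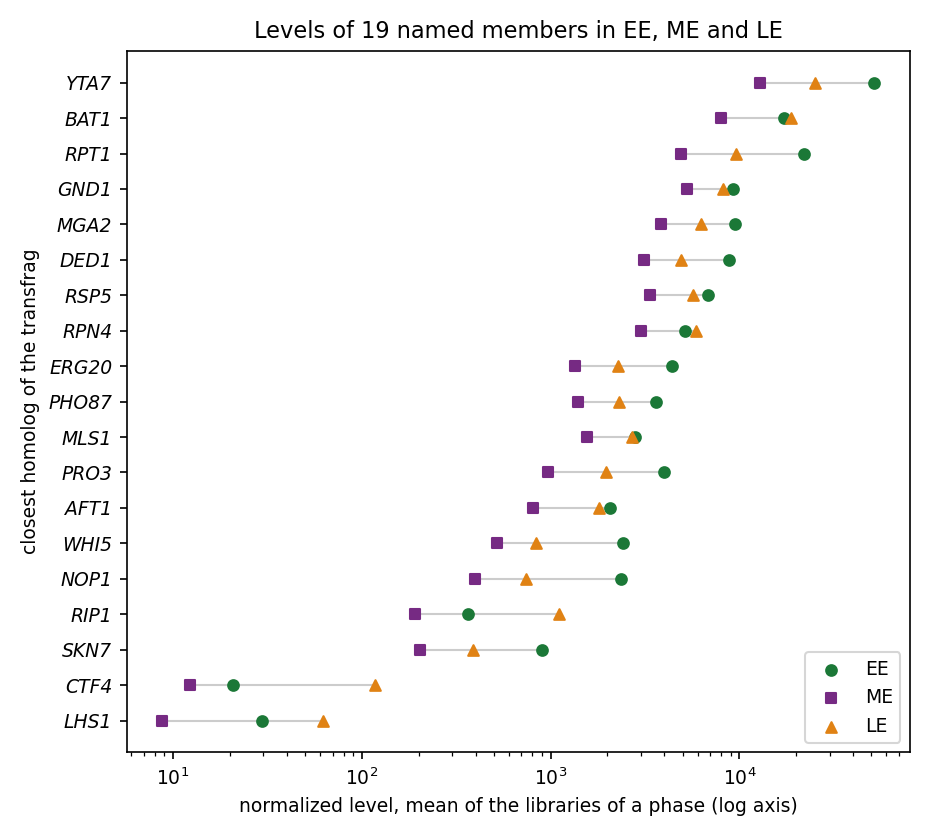
The horizontal axis is the normalized level on a log axis, and each row is a member named by its closest homolog, with the EE (circle), ME (square) and LE (triangle) level. The square lies furthest left in each of the 19 rows by the choice of members, while the triangle lies left of the circle except in BAT1, RPN4, RIP1, CTF4 and LHS1.

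The strand opposite the members was examined next, since it was not used to choose them. At least 1 lancRNA lay opposite 249 of the 335 members (74.3%), compared with 40.1% of the other mRNAs. The share differed with level. Among mRNAs with a mean level of 1000 and over, a lancRNA lay opposite 151 of 164 members (92.1%) and 360 of 417 others (86.3%). From 100 to 1000 it was 90 of 124 members (72.6%) and 709 of 1392 others (50.9%), and from 10 to 100 it was 8 of 47 (17.0%) and 410 of 1877 (21.8%). Opposite the members lay 344 lancRNAs, and 258 of them had a mean level of at least 10.

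The lancRNAs did not share the low ME level. By the same limits 11 of the 258 (4.26%) were lowest in ME, against 4.29% of the 1049 lancRNAs tested opposite any mRNA. ME was higher than EE in 207 (80.2%, against 73.4% of the 1049). LE was at least 1.5 times ME in 91 (35.3%, against 26.1%), and EE was at least 1.5 times ME in 33 (12.8%, against 17.3%). Their median log2 ratio was 1.34 for ME over EE and 0.37 for LE over ME. The direction of ME over EE was mostly opposite to that of the mRNA, but the mRNA direction was set by the choice of members. A higher level in ME than in EE was also the more common direction over the 1049 lancRNAs. Opposite mRNAs with a mean level of 1000 and over, the share with ME above EE was alike, 153 of 177 (86.4%) for members and 253 of 298 (84.9%) for other mRNAs. With the phases scaled to a median mRNA ratio of 0, ME was above EE in 176 of the same 258 lancRNAs (68.2%).

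As a percentage of the mRNA level, the lancRNA level had medians of 0.658%, 6.53% and 4.93% in EE, ME and LE over the 258 pairs of members. Over 832 pairs of other mRNAs the medians were 7.52%, 6.72% and 5.61%. The mRNA side of this percentage was set by the choice of members. With an estimate of reads placed on the wrong strand subtracted, ME was above EE in 206 of 256 lancRNAs (80.5%).

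The highest lancRNA opposite a member was transfrag29061, which covers 90.0% of transfrag26945. In EE, ME and LE it had 227.9, 5564 and 6876, a log2 ratio of 4.60 ± 0.10 for ME over EE. This came to 0.19%, 18.0% and 14.5% of the mRNA level. Opposite YTA7, transfrag04242 had 105.9, 1069 and 1617. The lancRNA opposite transfrag28738, transfrag26622, had 204, 783.3 and 1004. These 3 had a higher level in each later phase.

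The other 3 of the 6 highest lancRNAs behaved differently. The lancRNA transfrag13848 covers the whole of the member transfrag15560 on contig 106. It had 2287, 636.9 and 992.8 in EE, ME and LE, and the mRNA had 3177, 1335 and 3081. The lancRNA transfrag28450, opposite transfrag26331 on contig 114, had 1453, 342 and 375.1, beside 1738, 362.5 and 613.8 for the mRNA. Opposite transfrag19811 on contig 110, transfrag18077 had 1603, 587.8 and 510.2, beside 14098, 9191 and 17509 for the mRNA. In all 3 pairs both strands were higher in EE than in ME. Named members whose lancRNA was also lowest in ME included KIC1, TAF1 and DPB3. The lancRNA of KIC1, a kinase of cell integrity, had 294.6, 183.7 and 293.3.

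**Figure D5:**
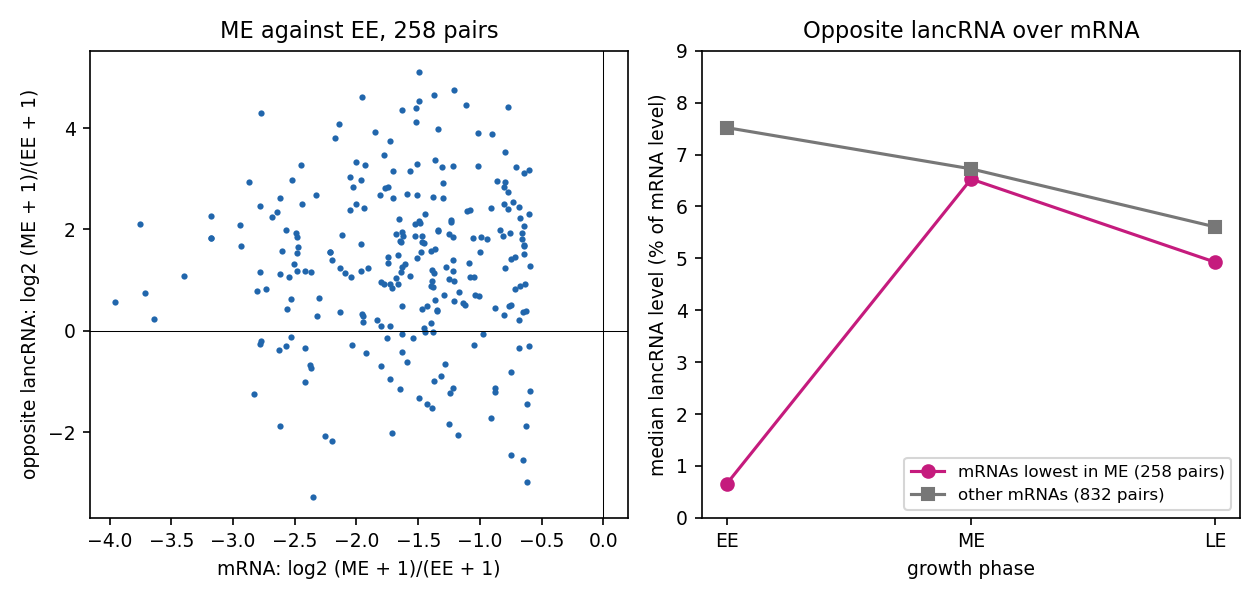
Left, each of 258 pairs is placed by the log2 ratio of ME over EE level of the member mRNA (horizontal) and of its opposite lancRNA (vertical). Right, the median lancRNA level in percent of the mRNA level is drawn for EE, ME and LE, and the line of the members starts at 0.658% in EE and meets that of the other mRNAs near 6.5% in ME.

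Short antisense transfrags (sancRNAs) opposite members numbered 137, and 3 of them reached a mean level of 10. All 3 were higher in ME than in EE, as were 77.8% of the 18 measured opposite any mRNA.

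Some genes of members held several mRNA transfrags. Counted per member, 4 of 53 other transfrags of its gene (7.55%) were members too, against 5.90% for non-members and 8.33% of all mRNAs tested. There were 41 genes with a member and at least 1 further transfrag of mean level 10 or more, and they held 43 members and 49 others. The 49 others are those that missed the rule, so a difference between them and the members was set by the choice. Of the 49 others, 5 had ME below both EE and LE, and 32 had a higher level in ME than in EE. The members there had a median level of 704.6, 266.9 and 588.5 in EE, ME and LE, and the other transfrags of the same genes 43.3, 70.4 and 69.3. Summed over the transfrags of a gene, the rule was met by 23 of the 41 genes. Of the remaining 18 genes, 10 still had a summed level lower in ME than in both EE and LE, by less than 1.5-fold.

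HOS4, a subunit of a histone deacetylase complex, and TDA11 each held 2 members and no other transfrag. The HOS4 transfrags had 528.5, 336.6 and 592.1 in EE, ME and LE, and 888.6, 266.9 and 602.6. In SKT5, an activator of chitin synthase, the transfrag from 123934 to 126298 on contig 91 had 4879, 711.7 and 1100.3. The shorter one from 127023 to 127712 had 14.8, 260 and 147.4. The parts of this gene were therefore opposite in direction between EE and ME. In GPA2, the member had 8790.2, 1139 and 2221 and the other transfrag 39.1, 18.5 and 7.78. In YAK1 they had 2839, 696.3 and 1146, and 98.2, 384.6 and 487.6. The member of LHS1 named above, with 29.6, 8.78 and 62.4, was the lower part of its gene, and the other part had 60.8, 442.6 and 451.3. In PDR1, the second part just missed the limits with 677.6, 284.7 and 424.

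Members lay on 14 of the 21 contigs with tested mRNAs, and the contigs without a member held only 1 to 5 tested mRNAs each. On the plus strand lay 160 members (47.8%, against 50.4% of the other mRNAs). A neighbour here is the next tested mRNA transfrag on the same strand of a contig, at any distance. Neighbours can lie on the same gene, as in HOS4 and TDA11, which cannot be told where no gene name is held. Of the same-strand mRNA neighbours of members, 102 of 667 (15.3%) were members, compared with 565 of 7305 (7.73%) of the neighbours of other mRNAs. The 51 neighbouring pairs involved 92 members, and the gap was under 1000 bp in 28 pairs and under 200 bp in 5. There were 9 runs of 3 or more. On contig 103, TAF1, LCB1 and YM8V lay in a row from 667014 to 674886 on the plus strand, with a gap of 3462 bp between TAF1 and LCB1. YM8V had the largest EE to ME ratio of these, with 13261, 2447 and 4122 in EE, ME and LE. On contig 104, UBP1, PUB1 and CRZ1 lay in a row from 227025 to 236990 on the minus strand. PUB1, an mRNA-binding protein of stress granules, had 5940.4, 2172 and 4175, and CRZ1, the calcineurin-responsive factor, had 734.7, 252.1 and 429.6. The longest run, of 4 members, held RTT107, both TDA11 transfrags and MRS4 on contig 105, with a gap of 11229 bp after RTT107. Of 12 intergenic transfrags of mean level 10 or more within 100 bp of a member on its strand, 1 was lowest in ME by the same limits, and of 53 beside other mRNAs 5 were.

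Transfrag length moved with level. The median length was 1250 nt for the members and 792.5 nt for the other mRNAs. At mean levels of 1000 and over, the rule was met by 33.9% of 62 mRNAs from 500 to under 1000 nt, 28.2% of 277 from 1000 to under 2000 nt and 27.5% of 233 from 2000 nt. Under 500 nt it was met by 1 of 9 (11.1%). A single member, transfrag03050 with the homolog AGC1, overlapped an RNA gene (0.30%), as did 7 of the 3686 other mRNAs (0.19%).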

How the data were processed

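Total RNA of 6 libraries, 2 per growth phase, was sequenced by the dUTP method after rRNA depletion. The submitters' processing notes name CASAVA 1.4 and DESeq. The authors mapped reads with CLC genomics workbench, placed non-specific matches at random, joined reads of all phases into transfrags and deposited a normalized read signal, scaled by DESeq and averaged over the libraries of a phase. Non-specific reads can move level between near-identical genes. No per-library values were used, so the planned reading of levels is descriptive, and 0 columns of per-sample values were left unmapped.

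Size factors were recovered from the low levels, of which 96.6% in EE, 98.8% in ME and 98.8% in LE fell on whole-read steps. Counting errors were taken from these factors and assume Poisson sampling. Levels were compared as log2 of level plus 1. Opposite transfrags overlapped by at least 1 bp. Homologs came from the 1998 genes of the annotation held here, so a missing name says nothing about a transfrag. Members and lists were chosen with earlier results of these data known. Named were the 8 deepest and 8 highest members, up to 3 per list, those at the limits, the 6 highest opposite lancRNAs and the 4 extremes of LE against EE each way. Others were chosen after their values were seen. Steps were tested on simulated data. Alternatives were other pseudocounts, limits, overlaps and scalings, the last including mapped-read totals given by the study, and a subtraction of wrong-strand reads. Python 3.11.15, NumPy 2.4.6, pandas 2.3.3, SciPy 1.17.1 and Matplotlib 3.10.9 were used.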

Additional observations from a re-analysis of the deposited data

How the results depend on the processing

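No paired analysis was possible because 1 mean level per phase was deposited, and for the same reason no replicate could be left out. Against 335 members, other limits gave 547 (a looser limit), 54 (2-fold) and 3 (3-fold). Other scalings gave 48 (equal sums), 71 (equal sums without the 100 highest transfrags) and 9 (mapped reads), all within the 335 except for 7 of the 71. A median mRNA ratio of 0 gave 344, of which 235 were among the 335. Other pseudocounts, mean limits, RNA gene overlaps and a counting margin gave 224 to 374. The share of members with LE below EE, 81.5% as deposited, was 85.8% with a median ratio of 0 and 66.7% with mapped reads, where 9 members remained. With the 335 members kept, an alternative chosen after seeing the data, it was 89.9% (equal sums), 96.7% (without the highest), 97.3% (median ratio of 0) and 43.9% (mapped reads), the last turning the direction. The share of their lancRNAs lowest in ME, 4.26%, was 0% with the 2-fold limit, equal sums, equal sums without the highest transfrags, or mapped reads, among 2 to 25 lancRNAs each. The share of lancRNAs with ME above EE, 80.2%, was 70.8% (2-fold limit), 72.2% (equal sums), 68% (without the highest), 64.7% (median ratio of 0) and 100% (mapped reads, 2 lancRNAs), and with the lancRNAs kept 68.2% (median ratio of 0) and 93.4% (mapped reads). Of other mRNA transfrags on the genes of members, 7.55% were members, against 5.90% on the genes of non-members and 8.33% of all mRNAs tested. With mapped reads it was 0% of 2. These scalings move every ratio of a phase pair by 1 factor, so the counts move with it. EE was the shallowest phase, so low EE levels are the least precise.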

Other observations

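A few members outside the gene lists are given here singly, chosen after their values were seen. RIB1, the first enzyme of riboflavin synthesis in *S. cerevisiae*, had levels of 10153, 1645 and 2806 in EE, ME and LE. DSK2, a ubiquitin receptor that brings cargo to the proteasome, had 5645, 1095 and 1812. BIOB, biotin synthase, had 4393, 1154 and 2275. MDY2, which helps to pass tail-anchored proteins to the endoplasmic reticulum, had 1627, 153.6 and 248.7. TOM70, a receptor of mitochondrial import, had a low member with 22.4, 5.97 and 10.6, and the other transfrag of its gene had 78.0, 358 and 467.2.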
